A study of Rattus norvegicus with 12 samples.

Results

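The 39 genes described here are used as marks of macrophages and of their blood precursors, the monocytes, and were followed in wound tissue of diabetic rats under 4 treatments. They were taken by symbol from a list set by hand with earlier results of these data known, and all 39 were found among the 25620 genes of the deposited table of read counts and in the table of FPKM values (fragments per length of the gene and per library total). The list was sorted by textbook role into 10 genes shared by macrophages and other myeloid cells, the 3 chains of complement C1q, 4 Fc and inhibitory receptors, 7 inflammatory genes, 9 genes of resident macrophages, 5 lipid-handling genes, and the growth factor Csf1. The tissue was taken from full-thickness skin wounds on the back of male rats made diabetic with streptozotocin. The control animals were thus diabetic and wounded as well. Control wounds received saline, d-SMG wounds a dried glue from the mucus of the snail Achatina fulica, GAG wounds the sulfated glycosaminoglycan of that mucus, and Alg wounds an alginate dressing. Tissue was collected on day 3, 7, and 14. The files hold 1 library for each treatment and day, 12 libraries altogether, and therefore no spread between replicates can be given for 2 treatments compared within a day. How many animals went into a library is not given in the sources used here, and streptozotocin diabetes shares only some features of human diabetic wounds.

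Macrophages enter a wound largely as monocytes from the blood and differentiate there under the growth factor CSF1, which acts through the receptor CSF1R. Early wound macrophages are known for inflammatory mediators and for the uptake of debris, and later ones for lipid handling, matrix turnover, and growth factors. Resident macrophages of the dermis carry scavenger and mannose receptors such as CD163 and CD206 (encoded by Mrc1). Few of these genes belong to macrophages alone. Lyve1 and Stab1 are also expressed by endothelium, Apoe and Csf1 by many stromal and epithelial cells, and Trem1 by neutrophils.

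The libraries held from 13748887 to 38302461 reads on genes, so that 1 CPM (a read count scaled to a common library size by TMM, which corrects for library composition) stood for 12.01 to 39.27 reads. The 39 genes took from 1.029% of the reads (d-SMG, day 3) to 4.738% (control, day 3), and from 0.0932% (GAG, day 14) to 0.916% (d-SMG, day 7) without Apoe. The d-SMG library of day 3 stood apart, with a sum over 13 keratinocyte markers of 62.1 CPM against 5182 to 41360 CPM in the other 11 libraries. The sum over 18 skeletal muscle markers was 278800 CPM there and 6886 to 166200 CPM elsewhere, and the TMM factor of that library was the lowest, 0.7154. Each of 7 macrophage markers had reads in every library, and their sum ranged from 239.4 CPM (Alg, day 7) to 1079 CPM (control, day 14). All 7 are among the 39 genes, so that the sum is no separate measure. C1qa alone was at 699 CPM in the control library of day 14. The tissue is a mixture of cell types, and fewer macrophages and less RNA per macrophage cannot be told apart in it. Lyz2, Fcgr2b, Fcgr3a, Lilrb4, and Siglec5 have close relatives in the rat genome, and since the treatment of shared reads is not given, their counts are uncertain.

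The sequences just upstream of a set of these genes, chosen from the values given further down, are printed. C1qa and C1qb, which encode chains of the same protein and lie close together on chromosome 5, varied less against each other than each did alone. Siglec5, Lilrb4, Trem2, Gpnmb, and Spp1 were lower on day 14 than on day 3 under all 4 treatments. These were 5 of 38 genes, against 5.71% of all genes. Spp1 differed by only -0.015 on the log2 scale in Alg, and by library size Siglec5 was not lower in all 4. Between day 3 and 7 these 5 genes had no common direction, for example 1.366 for Siglec5 and -1.018 for Spp1 in the control. Each window holds 250 bases before and 50 bases after the RefSeq start of the gene in the build GRCr8, read 5′ to 3′ on the strand of the gene, with matches to 3 short motifs on either strand in capitals. The motifs were GAGGAA, the core bound by PU.1 (the lineage factor of myeloid cells), TGANTCA, bound by AP-1, and CATGTG, an E-box of the kind bound by the MITF and TFE family. The windows lie at chr5:154419884-154420183 on the minus strand (C1qa), chr5:154407778-154408077 on the minus strand (C1qb), chr1:102904656-102904955 on the plus strand (Siglec5), chr1:78853203-78853502 on the minus strand (Lilrb4), chr9:20151730-20152029 on the minus strand (Trem2), chr4:79340878-79341177 on the plus strand (Gpnmb), and chr14:5619755-5620054 on the minus strand (Spp1). The build of the deposited tables is not given in the sources used here, and only symbols were matched.
C1qa: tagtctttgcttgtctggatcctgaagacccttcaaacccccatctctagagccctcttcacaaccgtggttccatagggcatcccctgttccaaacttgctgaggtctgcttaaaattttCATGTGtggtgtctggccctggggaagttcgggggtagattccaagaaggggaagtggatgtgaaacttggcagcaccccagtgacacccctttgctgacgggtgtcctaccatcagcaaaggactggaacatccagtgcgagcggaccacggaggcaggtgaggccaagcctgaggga
C1qb: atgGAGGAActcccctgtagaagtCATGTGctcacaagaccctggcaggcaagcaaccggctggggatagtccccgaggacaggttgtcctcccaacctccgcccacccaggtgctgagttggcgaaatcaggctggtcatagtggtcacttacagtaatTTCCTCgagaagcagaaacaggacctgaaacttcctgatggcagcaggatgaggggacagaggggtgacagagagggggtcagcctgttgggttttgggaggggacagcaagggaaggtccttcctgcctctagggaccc
Siglec5: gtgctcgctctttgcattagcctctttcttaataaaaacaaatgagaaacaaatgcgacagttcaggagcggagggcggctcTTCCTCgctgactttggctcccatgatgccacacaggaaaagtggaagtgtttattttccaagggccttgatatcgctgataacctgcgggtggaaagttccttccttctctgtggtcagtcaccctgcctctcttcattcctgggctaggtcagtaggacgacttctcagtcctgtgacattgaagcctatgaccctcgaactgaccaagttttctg
Lilrb4: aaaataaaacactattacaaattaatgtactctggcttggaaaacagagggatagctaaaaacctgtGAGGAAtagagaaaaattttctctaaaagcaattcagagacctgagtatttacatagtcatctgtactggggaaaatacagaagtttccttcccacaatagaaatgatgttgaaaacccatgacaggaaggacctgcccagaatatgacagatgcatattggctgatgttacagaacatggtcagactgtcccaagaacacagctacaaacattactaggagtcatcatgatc
Trem2: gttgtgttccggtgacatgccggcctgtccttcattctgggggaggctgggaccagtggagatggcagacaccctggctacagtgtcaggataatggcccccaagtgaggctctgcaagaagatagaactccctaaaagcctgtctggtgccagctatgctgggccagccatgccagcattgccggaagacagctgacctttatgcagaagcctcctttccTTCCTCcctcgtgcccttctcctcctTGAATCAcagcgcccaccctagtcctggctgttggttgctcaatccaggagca
Gpnmb: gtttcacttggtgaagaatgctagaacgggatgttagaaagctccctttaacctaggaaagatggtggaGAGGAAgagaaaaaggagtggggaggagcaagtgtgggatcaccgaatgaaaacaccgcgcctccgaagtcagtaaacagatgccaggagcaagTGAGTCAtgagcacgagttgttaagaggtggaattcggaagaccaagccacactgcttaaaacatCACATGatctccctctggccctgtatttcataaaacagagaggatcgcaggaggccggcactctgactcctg
Spp1: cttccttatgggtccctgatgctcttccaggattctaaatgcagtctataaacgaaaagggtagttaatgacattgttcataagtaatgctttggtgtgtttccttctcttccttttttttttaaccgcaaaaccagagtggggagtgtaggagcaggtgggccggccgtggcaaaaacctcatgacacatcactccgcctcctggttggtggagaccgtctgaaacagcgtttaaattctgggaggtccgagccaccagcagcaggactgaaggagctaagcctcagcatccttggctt

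GAGGAA was found in 19 of the 29 windows available for these genes (65.5%), against 27.5% of 27457 rat promoter windows of the same length. CATGTG was found in 10 of the 29 windows (34.5%, against 13.5% of all windows), and TGANTCA in 3 (10.3%, against 7.33%), which were those of Cd68, Trem2, and Gpnmb. In the C1qb window GAGGAA begins 247 and 90 bases before the start and CATGTG 226 bases before it, whereas the C1qa window holds CATGTG alone, 129 bases before the start. The window of Gpnmb holds all 3 motifs, that of Trem2 holds GAGGAA and TGANTCA, those of Siglec5 and Lilrb4 hold GAGGAA alone, and that of Spp1 holds none of the 3. No printed matches overlap each other. A match describes the letters only and is not a measured binding site.

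Per length of the gene, the levels spanned a wide range. Apoe, a lipid carrier protein, was highest, with a median of 18870 FPKM over the 12 libraries, followed by Lyz2 (lysozyme) at 571.7 FPKM and C1qa at 290.7 FPKM. Gpnmb, a glycoprotein of lipid-laden macrophages, had a median of 134.0 FPKM, and Clec10a, a lectin of resident macrophages and dendritic cells, 104.2 FPKM. The lowest medians were those of inflammatory and resident genes, with 0.53 FPKM for Tnf, 0.495 FPKM for Vsig4, 0.425 FPKM for Cd80, and 0.03 FPKM for Marco. Of the 7 inflammatory genes, 5 had a median below 1 FPKM, and only Fcgr1a (11.5 FPKM) and Cd14 (7.205 FPKM) lay above it. The inflammatory side of this set was therefore measured with few reads, for example 5 to 53 reads for Tnf and 0 to 59 for Ptgs2. The range of Apoe over the 12 libraries lay above that of Lyz2, and the ranges of all other neighbours in this order overlapped. The plot of levels per length shows the medians and ranges.

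**Figure D1:**
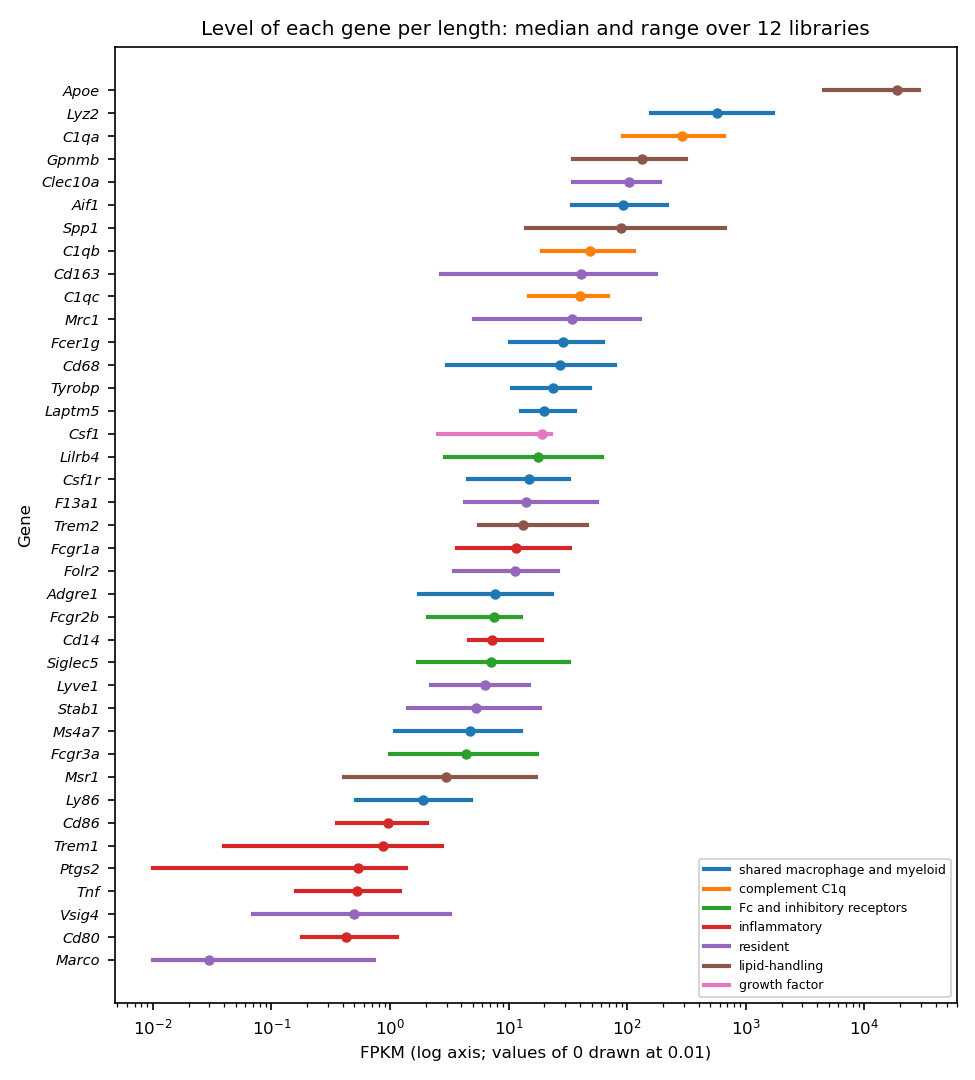
FPKM (log axis) of each of the 39 genes, with the median over the 12 libraries as a point, the lowest to highest library as a line, and the role group as colour; values of 0 are drawn at 0.01. Apoe lies far above the other genes, and 5 of the 7 inflammatory genes have medians below 1 FPKM.

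Across the libraries the genes varied by 2.423 times (Laptm5, highest over lowest CPM) to 54.23 times (Spp1) among those with reads in every library. The GAG library of day 14 held the lowest CPM of 21 of the 39 genes. The highest CPM was in the control library of day 3 for 12 genes and in the d-SMG library of day 7 for 11 genes. Within a day, the control library was highest for 27 genes on day 3, the d-SMG library for 27 on day 7, and the Alg library for 17 on day 14. The lowest of the 4 libraries was GAG for 17, 16, and 30 genes on day 3, 7, and 14, respectively, and Alg for 16, 21, and 4. The heat map shows this order gene by gene. These counts were not made over all genes, so that no share of all genes stands beside them. In the GAG library of day 14, 25.7% of all genes compared were at least 2-fold higher than control and 30.4% at least 2-fold lower.

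**Figure D2:**
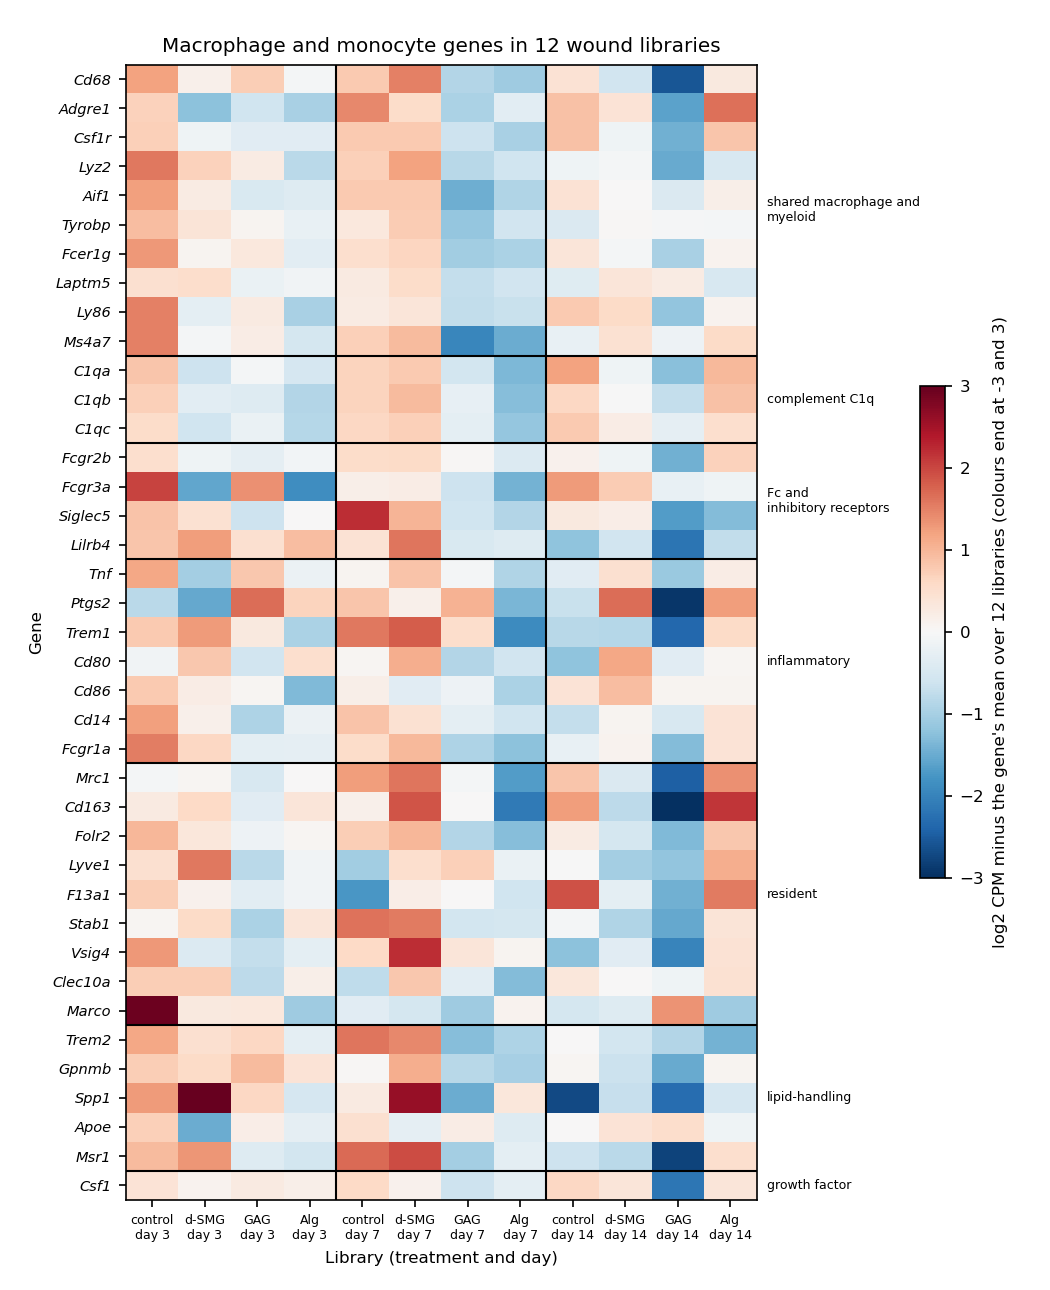
Log2 CPM of the 39 genes in the 12 libraries, each gene centred on its own mean; rows are grouped by role and columns by day, and colours end at -3 and 3. The GAG library of day 14 is blue for most genes, and the control library of day 3 and the d-SMG library of day 7 are red for most.

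Treatments were compared over the 3 days, and days over the 4 treatments, with the quasi-likelihood test of edgeR on all genes, with day and treatment as terms. It called 0 of 16110 genes at an FDR of 0.05 in each of the 6 comparisons, 0% of the genes tested, and accordingly 0 of the 38 genes of this set that passed the low-count filter (Marco did not). No difference given here from this model is thus called by it, and differences are given as log2 values with their SE. On the same counts DESeq2 called 9, 288, and 88 genes for d-SMG, GAG, and Alg against control, respectively, and 0, 39, and 7 genes for day 7 against 3, day 14 against 3, and day 14 against 7. The 3 treatment comparisons use the same control libraries and are not independent of each other. In this model the days serve as replicates of a treatment, and a treatment effect that differs between days adds to the spread.

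Of the 10 genes shared by macrophages and other myeloid cells, 10, 10, and 7 were below the control of the day in GAG on day 3, 7, and 14, and as many in Alg. Lyz2, the lysozyme of macrophages and neutrophils, was at 2536, 1406, and 774 CPM on day 3, 7, and 14 in the control, 1369, 1969, and 818 CPM in d-SMG, 1004, 477, and 296.5 CPM in GAG, and 487, 564, and 609 CPM in Alg. All Alg values lay below all control values, whereas the GAG and control values overlapped. Aif1, which encodes the actin-binding protein IBA1 of macrophages, was at 323, 238, and 184 CPM in the control, 162, 238, and 137 CPM in d-SMG, 100.5, 49.8, and 101.5 CPM in GAG, and 105, 73.0, and 154 CPM in Alg. Neither the GAG nor the Alg values of Aif1 overlapped with those of the control. Cd68, a lysosomal protein, was at 70.6, 52.6, and 40.7 CPM in the control, 34.0, 86.8, and 20.4 CPM in d-SMG, 51.0, 16.4, and 5.0 CPM in GAG, and 29.0, 14.4, and 37.3 CPM in Alg.

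Over the 3 days, all 10 shared genes had a negative log2 difference in GAG and in Alg, with medians of -1.38 and -0.963, and 8 of the 10 in d-SMG, with a median of -0.367. In GAG the difference was -1.56 ± 0.43 (SE, 3 libraries per treatment) for Aif1, -1.38 ± 0.48 for Lyz2, and -1.48 ± 0.51 for Csf1r, the receptor for CSF1. By the edgeR quasi-likelihood test the adjusted p-values were 0.417, 0.496, and 0.493, respectively. DESeq2 called Aif1 lower in GAG, with an adjusted p-value of 0.0414. Csf1r ranged from 115.6 to 127.8 CPM in the 3 control libraries and from 25.6 to 55.2 CPM in the 3 GAG libraries. Adgre1, which encodes the macrophage receptor F4/80, ranged from 39.1 to 65.9 CPM in the control and from 7.79 to 16.0 CPM in GAG, with a log2 difference of -1.88 ± 0.65. Both were named after their values were seen. The Alg library of day 14, at 124.1 CPM of Csf1r, was at the level of the control, while those of day 3 and 7 were at 55.3 and 35.3 CPM.

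The 3 chains of C1q, which opens the classical complement pathway and is made mainly by macrophages, varied less relative to each other than alone. C1qa was at 543, 479, and 699 CPM on day 3, 7, and 14 in the control, 195, 525, and 277 CPM in d-SMG, 290.3, 208, and 126 CPM in GAG, and 213, 119, and 592.5 CPM in Alg. C1qb was at 94.7, 91.5, and 88.6 CPM in the control, 46.8, 112, and 57.5 CPM in d-SMG, 44.2, 49.1, and 35.3 CPM in GAG, and 31.5, 23.8, and 106 CPM in Alg. The control libraries hardly varied in C1qb over the days, all GAG values lay below them, and the d-SMG and Alg values crossed them. The C1qa to C1qb ratio of CPM ranged from 3.577 (GAG, day 14) to 7.887 (control, day 14), a span of 2.205 times, and the C1qb to C1qc ratio from 1.088 to 1.928, a span of 1.772 times. C1qb itself spanned 4.691 times. The ratio of C1qa to Csf1r spanned 1.791 times, from 3.052 (d-SMG, day 3) to 5.467 (control, day 14), while C1qa spanned 5.887 times. The log2 difference over the 3 days was -1.36 ± 0.62 for C1qa in GAG, -0.99 ± 0.62 in Alg, and -0.80 ± 0.62 in d-SMG.

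The Fc and inhibitory receptors differed from one another. Siglec5, a sialic acid-binding receptor with an inhibitory tail, was at 35.6, 91.9, and 24.05 CPM on day 3, 7, and 14 in the control, 27.0, 39.7, and 22.4 CPM in d-SMG, 12.7, 12.9, and 6.10 CPM in GAG, and 19.8, 10.7, and 7.88 CPM in Alg. All 6 GAG and Alg libraries lay below all 3 control libraries. Its log2 difference was -2.14 ± 0.42 in GAG (adjusted p = 0.396, edgeR), -1.86 ± 0.42 in Alg (adjusted p = 1, edgeR), and -0.66 ± 0.40 in d-SMG. DESeq2 called Siglec5 lower in GAG, with an adjusted p-value of 0.000726, and in Alg, with 0.0164.

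Lilrb4, an inhibitory receptor of the leukocyte Ig-like family, was lowest on day 14 under each treatment, and on each day highest in d-SMG and lowest in GAG. It was at 59.6, 45.25, and 14.5 CPM in the control, 80.1, 102, and 22.3 CPM in d-SMG, 46.3, 24.2, and 7.27 CPM in GAG, and 63.6, 25.7, and 19.9 CPM in Alg. The 4 libraries of day 14 lay below all 8 libraries of day 3 and 7. Fcgr3a, the activating Fc receptor CD16, was at 22.2, 6.03, and 12.99 CPM in the control, 1.75, 6.22, and 9.075 CPM in d-SMG, 14.1, 3.41, and 4.55 CPM in GAG, and 1.38, 1.92, and 4.85 CPM in Alg. On day 3 it split the treatments, with 522 and 248 reads in control and GAG and 21 and 28 reads in d-SMG and Alg. The log2 difference from control on that day was -3.59 in d-SMG (95% counting interval -4.37 to -3.04) and -3.91 in Alg (-4.61 to -3.46). These Clopper-Pearson intervals cover counting error only.

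The inflammatory genes with the most reads were the receptors Cd14 and Fcgr1a. Cd14, the co-receptor for lipopolysaccharide, was at 36.85, 28.45, and 9.55 CPM on day 3, 7, and 14 in the control, 17.5, 21.6, and 16.5 CPM in d-SMG, 8.28, 12.8, and 11.3 CPM in GAG, and 13.9, 10.3, and 20.9 CPM in Alg. The control library was thus highest of the 4 on day 3 and 7 and lowest on day 14. Fcgr1a, the high-affinity Fc receptor CD64, was at 52.1, 26.1, and 15.3 CPM in the control, 27.6, 35.3, and 19.0 CPM in d-SMG, 14.6, 9.37, and 7.21 CPM in GAG, and 14.9, 7.49, and 23.6 CPM in Alg. The GAG values of Fcgr1a lay below those of the control on every day, with a log2 difference of -1.50 ± 0.51 over the 3 days (adjusted p = 0.489, edgeR).

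The mediators themselves were scarce. Tnf, which encodes the cytokine TNF, was at 2.25, 1.02, and 0.727 CPM in the control, 0.416, 1.82, and 1.38 CPM in d-SMG, 1.76, 0.917, and 0.390 CPM in GAG, and 0.839, 0.464, and 1.14 CPM in Alg. Against the control of the same day it was lower by a log2 difference of -2.18 in d-SMG on day 3 (-4.12 to -1.12, 5 against 53 reads), and its intervals on day 7 (-0.0574 to 1.81) and day 14 (-0.0913 to 1.97) held 0. Ptgs2, the inducible cyclooxygenase COX-2, had 8, 19, and 8 reads in the control, 2, 16, and 38 reads in d-SMG, 42, 59, and 0 reads in GAG, and 23, 3, and 28 reads in Alg. The 0 reads in the GAG library of day 14 allow a level of up to 0.195 CPM (3 reads). Cd86, a costimulatory ligand for T cells, was at 3.36, 2.17, and 2.57 CPM in the control, 2.25, 1.48, and 3.69 CPM in d-SMG, 1.98, 1.71, and 2.01 CPM in GAG, and 0.691, 0.928, and 2.02 CPM in Alg. The GAG and Alg values of Cd86 lay below those of the control, by a log2 difference of -0.47 ± 0.44 and -1.26 ± 0.45 over the 3 days. Cd80, the other ligand of that pair, was named after its values were seen, and was higher in d-SMG than in the control of its day on every day, with 3.25, 4.02, and 4.19 CPM against 1.70, 1.90, and 0.727 CPM. Its log2 difference was 1.40 ± 0.49 (adjusted p = 1, edgeR).

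Of the genes of resident macrophages, those with reads in every library varied from 4.328 times between libraries for Clec10a to 47.92 times for Cd163. Cd163, the scavenger receptor for hemoglobin, was at 328.5, 307, and 653 CPM on day 3, 7, and 14 in the control, 418, 1009, and 160.1 CPM in d-SMG, 217, 278, and 25.5 CPM in GAG, and 350.5, 63.0, and 1220 CPM in Alg. Mrc1, which encodes the mannose receptor CD206, was at 193, 478, and 354 CPM in the control, 209, 608.5, and 148 CPM in d-SMG, 143, 193, and 36.7 CPM in GAG, and 200.0, 62.8, and 518.5 CPM in Alg. Both genes had their peak on day 7 in d-SMG and on day 14 in Alg, and their lowest level in the GAG library of day 14. Clec10a was at 247, 86.6, and 188 CPM in the control, 244, 260, and 148.5 CPM in d-SMG, 85.0, 119, and 134 CPM in GAG, and 165, 60.1, and 203 CPM in Alg.

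Against the control of the same day, 5 of the 8 resident genes compared were at least 2-fold higher in d-SMG on day 7, where 6.66% of all genes were, with a median log2 difference of 1.58. On day 14, 4 of 8 were at least 2-fold lower, as were 15.1% of all genes, with a median of -0.922, and on day 3 the median over 9 genes was -0.0188. For Cd163, Clec10a, Lyve1, and F13a1 the control was at its lowest on day 7 (307, 86.6, 10.2, and 16.4 CPM). For Mrc1 and Stab1 it was at its highest on that day. In GAG, 2 resident genes, Lyve1 and F13a1, were also at least 2-fold higher than control on day 7. Cd163 was 3.29-fold higher in d-SMG on day 7 and at 0.245 of the control on day 14. In GAG the medians were -1.15, -0.194, and -1.55 on day 3, 7, and 14, and in Alg -0.594, -1.28, and 0.559. Over the 3 days the medians of the resident genes tested were 0.0454, -1.28, and -0.255 in d-SMG, GAG, and Alg. The ratio of Mrc1 to Cd86 in FPKM, a pair often read as CD206 against CD86, was 20.59, 79.08, and 49.54 on day 3, 7, and 14 in the control, 33.21, 147.8, and 14.34 in d-SMG, 25.71, 40.65, and 6.564 in GAG, and 103.4, 24.33, and 91.97 in Alg. Compared with the control of its day, the ratio was higher in d-SMG on day 3 and 7 and lower on day 14. In GAG it was higher on day 3 and lower on day 7 and 14. In Alg it was higher on day 3 and 14 and lower on day 7. Cd86 rests on 14 to 79 reads in a library, and the ratio has no interval.

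The lipid-handling genes held the gene with the widest finite span between libraries, Spp1. Spp1, which encodes the secreted phosphoprotein osteopontin, was at 373, 184, and 23.4 CPM on day 3, 7, and 14 in the control, 1267, 940.3, and 94.8 CPM in d-SMG, 234, 54.4, and 31.4 CPM in GAG, and 109, 192, and 108 CPM in Alg. The d-SMG library exceeded the control of its day on every day, by 3.39-fold, 5.10-fold, and 4.04-fold. Over the 3 days the log2 difference was 2.02 ± 0.72 (adjusted p = 1, edgeR), and DESeq2 did not call it. Apoe was at 41890, 35350, and 25610 CPM in the control, 9157, 21090, and 33790 CPM in d-SMG, 29540, 29920, and 36560 CPM in GAG, and 21250, 19510, and 23450 CPM in Alg. It was lower than control by 0.82 ± 0.59 on the log2 scale over the 3 days in d-SMG. Its lowest level was in the d-SMG library of day 3, which also held the lowest keratinocyte and the highest muscle sum. The part of either in that level was not tested. Trem2, a lipid receptor of phagocytes, was named after its values were seen, and was at 40.3, 54.9, and 18.2 CPM in the control and at 14.7, 9.41, and 6.68 CPM in Alg, with no overlap. Its log2 difference in Alg was -1.83 ± 0.51 (adjusted p = 1, edgeR).

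Csf1, the growth factor of the lineage, was at 96.8, 111, and 113 CPM on day 3, 7, and 14 in the control, 78.25, 80.1, and 93.1 CPM in d-SMG, 88.0, 47.6, and 16.2 CPM in GAG, and 82.5, 59.7, and 93.9 CPM in Alg. All 9 treated libraries lay below all 3 control libraries. The log2 difference over the 3 days was -0.38 ± 0.49 in d-SMG, -1.15 ± 0.50 in GAG (adjusted p = 0.539, edgeR), and -0.46 ± 0.49 in Alg. By library size in place of TMM, Csf1 stayed lower than control on all 3 days in d-SMG and Alg but not in GAG.

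In GAG wounds most of these genes were below the control on every day, which was 37 of 39, 34 of 38, and 28 of 35 genes compared on day 3, 7, and 14. Apoe, the most abundant, was higher in GAG on day 14. On day 3, 18 of 39 genes were at least 2-fold lower and 1 was at least 2-fold higher, against 10.7% and 13% of all genes compared. On day 7 it was 20 and 2 of 38 genes, against 11.6% and 12.3% of all genes, and on day 14 it was 22 and 0 of 35 genes, against 30.4% and 25.7%. The median log2 difference of the set was -0.902, -1.10, and -1.35 on the 3 days, and that of all genes lay between -0.093 and 0.0451. Of the 38 genes tested, 26 were lower than control on all 3 days, against 14% of all genes, and 0 were higher on all 3 days, against 13.6%. The genes that were not among the 26 were Tyrobp, Laptm5, Ms4a7, Ptgs2, Cd80, Cd14, Lyve1, F13a1, Clec10a, Gpnmb, Apoe, and Spp1. In the model over the 3 days, 37 of 38 genes had a negative log2 difference, with a median of -1.14 against 0.00206 for all genes, and the exception was Ptgs2 at 1.09 ± 1.36. An unadjusted p-value under 0.05 was reached by 14 of the 38 genes (4 without day 7) and by 9.26% of all genes, while edgeR called 0 and DESeq2 called 2, Siglec5 and Aif1.

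Markers of other cell types moved in the same libraries. Of 13 keratinocyte markers, 10 had a positive log2 difference in GAG over the 3 days (median 1.28), and their sum was 15070, 23100, and 41360 CPM in GAG on day 3, 7, and 14 against 6327, 5182, and 15420 CPM in the control. Of 9 fibroblast markers 1 was positive (median -0.874), and of 9 endothelial markers 1 was positive (median -0.729). Of 8 adipocyte markers 7 were positive (median 1.11), and of 6 neutrophil markers tested 1 was (median -1.59). Of 18 skeletal muscle markers 12 were positive (median 0.405). Their sum was 49930, 55090, and 138400 CPM in GAG on day 3, 7, and 14, against 92910, 71710, and 76970 CPM in the control. No keratinocyte, fibroblast, or endothelial marker was at 0 reads in any library. The part of this shift in cell types in the lower levels of the macrophage genes was not tested.

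Alg wounds were below the control on day 3 and 7 and not on day 14. On day 3, 23 of 39 genes were at least 2-fold lower and 1 was higher, against 7.84% and 10.1% of all genes. On day 7 it was 24 and 1 of 38 genes, against 11.5% of all genes in either direction, and on day 14 it was 3 and 8 of 38, against 10.9% and 8.83%. The median log2 difference was -1.32, -1.53, and 0.321. The 8 higher genes on day 14 included 4 inflammatory, 2 resident, and 2 lipid-handling genes, with median differences of 1.12, 0.559, and 0.0178 over those 3 groups, while the 10 shared genes had a median of -0.123. Of 38 genes, 15 were lower on all 3 days, against 11.2% of all genes, and 0 were higher, against 13.3%. Over the 3 days 33 of 38 genes had a negative log2 difference, with a median of -0.639 against -0.0274 for all genes. It was -1.39 without the libraries of day 14, -0.359 without those of day 3, and -0.423 without those of day 7. An unadjusted p-value under 0.05 was reached by 9 of the 38 genes (3 without day 3, 3 without day 7, and 20 without day 14) and by 3.12% of all genes, and DESeq2 called Siglec5 alone among them. All 8 adipocyte markers were higher (median 1.42), 10 of 13 keratinocyte markers were (median 0.678), and 0 of 8 T cell markers were (median -0.533). Of 9 fibroblast markers 1 was higher (median -0.539), of 9 endothelial markers 1 (median -0.204), and of 7 mast cell markers 6 (median 0.466). Of 18 skeletal muscle markers 8 were higher (median -0.0213). The sum of the muscle markers was 50140, 166200, and 14170 CPM in Alg on day 3, 7, and 14. In the control it was 92910, 71710, and 76970 CPM. The part of these cell types in the differences was not tested.

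d-SMG wounds differed from the control in opposite ways on different days. On day 3, 14 of 39 genes were at least 2-fold lower and 2 higher (Lyve1 and Spp1), against 13.2% and 9.37% of all genes, with a median log2 difference of -0.675. On day 7, 9 of 38 were higher and 1 lower (Siglec5), against 6.66% and 5.15% of all genes, with a median of 0.245. On day 14, 3 were higher (Ptgs2, Cd80, and Spp1) and 6 lower, against 11.8% and 15.1% of all genes, with a median of -0.264. Laptm5, Lilrb4, Cd80, and Spp1 were higher than control on all 3 days, 4 of 38 genes against 10.4% of all genes, and with library size in place of TMM these were Trem1, Cd80, and Spp1. Adgre1, Aif1, Siglec5, Trem2, and Csf1 were lower on all 3 days, 5 genes against 8.52% of all genes, and by library size Adgre1 and Csf1 alone. The share of genes higher on all days was thus close to that among all genes. The difference of Aif1 on day 7 was -0.00267, and its counting interval held 0.

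The day 3 comparison rests on the d-SMG library that held hardly any keratinocyte RNA. Scaled by library size, the median of all genes between these 2 libraries was -0.442 in place of 0.00393, the median of the macrophage genes -1.12, and 22 genes in place of 14 were at least 2-fold lower, against 22.1% in place of 13.2% of all genes. On the other days and treatments the same change of scale moved the median of all genes to 0.307 (d-SMG, day 7), 0.169 (d-SMG, day 14), 0.133 (GAG, day 3), 0.135 (Alg, day 3), and -0.464 (GAG, day 14). Over the 3 days the median of the 38 genes in d-SMG was -0.258 against -0.0299 for all genes, with 14 genes positive and 24 negative. Without day 3 it was 0.0119, without day 7 it was -0.490, and without day 14 it was -0.220. An unadjusted p-value under 0.05 was reached by 2 of the 38 genes (1 without day 7), Spp1 and Cd80, and by 1.35% of all genes. Of 13 keratinocyte markers 4 were positive in d-SMG (median -0.855), of 7 mast cell markers 2 (median -0.747), of 9 fibroblast markers 1 (median -0.645), and of 9 endothelial markers 1 (median -0.233). Of 18 skeletal muscle markers 3 were positive (median -0.212). Their sum was 278800, 6886, and 9281 CPM in d-SMG on day 3, 7, and 14, against 92910, 71710, and 76970 CPM in the control. Of 8 T cell markers 7 were positive (median 0.420) and of 8 dendritic and Langerhans cell markers 7 (median 0.522), and the part of these lists was not tested.

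**Figure D3:**
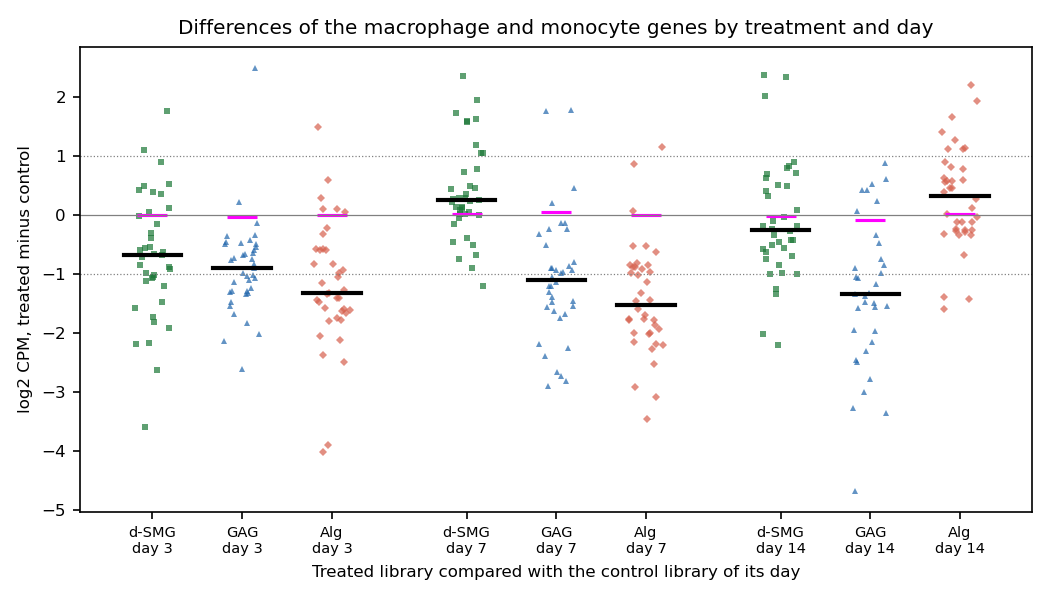
Log2 CPM difference of each macrophage and monocyte gene between a treated library and the control library of its day, 1 point per gene; black bars mark the median of the set, magenta bars the median of all genes, and dotted lines a 2-fold difference. The set lies below 0 in GAG on each day and in Alg on day 3 and 7, with medians from -0.902 to -1.53, and near 0 in d-SMG on day 7 and 14.

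From day 3 to day 14 a subset of the genes was lower under every treatment. Siglec5, Lilrb4, Trem2, Gpnmb, and Spp1 were lower on day 14 in all 4 treatments, 5 of 38 genes against 5.71% of all genes, and 0 genes were higher in all 4, against 5.57%; by library size Siglec5 was not lower in all 4. The treatments share no library in this comparison. Lilrb4 differed by a log2 value of -2.03 in the control, -1.84 in d-SMG, -2.65 in GAG, and -1.67 in Alg, a mean of -2.05 ± 0.43 (SD, n = 4). Trem2 differed by -1.20 ± 0.20 and Gpnmb by -1.18 ± 0.94 (SD, n = 4). Spp1 differed by -3.99 in the control, -3.74 in d-SMG, and -2.90 in GAG but by -0.0151 in Alg, where it was at nearly the same CPM on both days. The model gave -2.02 ± 0.33 (SE) for Lilrb4 with an adjusted p-value of 0.768 by edgeR, and DESeq2 called it, with 0.000108, as well as Spp1, with 0.0124. Over all 38 genes the median was -0.172, with 13 positive and 25 negative, against 0.013 for all genes. It was -0.0037 without the control libraries, -0.530 without Alg, and -0.303 without d-SMG. An unadjusted p-value under 0.05 was reached by 6 of the 38 genes and by 4.95% of all genes (3 of the 38 without control, 3 without d-SMG, 4 without GAG, and 9 without Alg). Of the other marker lists, all 13 keratinocyte markers were higher on day 14 (median 2.35), 1 of 18 skeletal muscle markers was (median -1.49), and all 8 T cell markers were (median 1.12), and their part was not tested.

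Day 7 showed no common direction of the set against either outer day. Against day 3, 0 genes were higher and 0 lower in all 4 treatments, against 6% and 5.39% of all genes, and without the d-SMG libraries 12 were lower in the other 3 treatments, against 12.3% of all genes. The median over the 38 genes was -0.259, with values of -0.0989 without control, -0.401 without d-SMG, -0.0699 without GAG, and -0.135 without Alg. An unadjusted p-value under 0.05 was reached by 0 of the 38 genes (2 without d-SMG and 1 without Alg) and 1.81% of all genes. From day 7 to day 14, Fcgr3a and Cd86 were higher in all 4 treatments, 2 genes against 6.14% of all genes, and by library size Fcgr3a alone. Siglec5, Lilrb4, and Spp1 were lower in all 4, 3 genes against 4.69% of all genes. Fcgr3a differed by 0.83 ± 0.43 and Cd86 by 0.69 ± 0.54 on the log2 scale (SD, n = 4). The median over the set was -0.00995 between these days, 0.136 without d-SMG, 0.0588 without control, 0.0199 without GAG, and -0.538 without Alg. An unadjusted p-value under 0.05 was reached by 6 of the 38 genes and by 3.12% of all genes (1 of the 38 without control, 2 without d-SMG, 4 without GAG, and 8 without Alg).

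**Figure D4:**
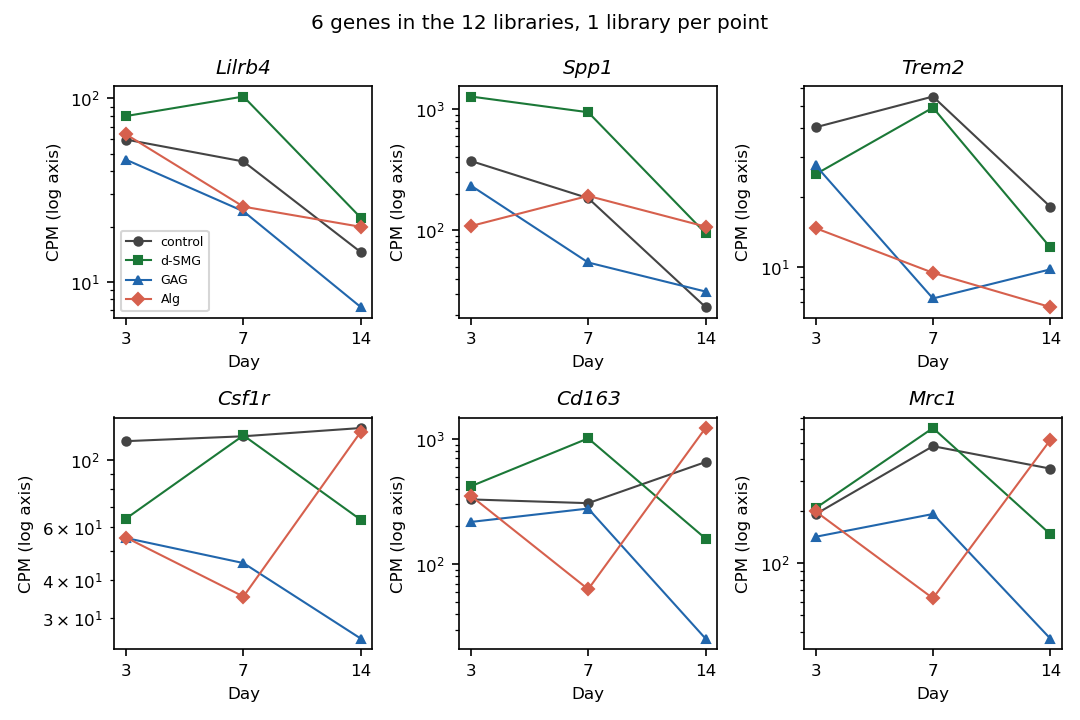
CPM (log axis) of 6 genes on day 3, 7, and 14, with 1 library per point and a line for each treatment. Lilrb4 is lowest on day 14 in all 4 treatments, Spp1 in d-SMG starts at 1267 CPM, and Csf1r, Cd163, and Mrc1 are lowest in the GAG library of day 14.

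The balance between the role groups was read within each library, as the mean log2 CPM of a group minus that of the 10 shared genes, which removes a change common to all macrophage genes. The lipid-handling genes stood at 2.62, 2.92, and 1.86 on day 3, 7, and 14 in the control, 3.52, 3.32, and 2.20 in d-SMG, 3.14, 2.92, and 2.35 in GAG, and 3.00, 3.13, and 2.20 in Alg. The 4 values of day 14 lay below the 8 values of day 3 and 7. The change from day 3 to day 14 was -0.76 in the control, -1.32 in d-SMG, -0.79 in GAG, and -0.80 in Alg, a mean of -0.92 ± 0.27 (SD, n = 4). The mean log2 CPM of the lipid-handling genes alone fell from 8.806 to 7.19 in the control and from 8.631 to 7.379 in d-SMG. It fell from 8.239 to 6.452 in GAG but was nearly the same in Alg (7.604 and 7.544). The mean of the shared genes rose from 4.601 to 5.344 in Alg. The C1q chains changed the other way relative to the shared genes in all 4 treatments, by 1.03, 0.47, 0.47, and 0.79, a mean of 0.69 ± 0.27. Their own mean log2 CPM was lower on day 14 than on day 3 in GAG (5.718 against 6.247) and higher in the other treatments.

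Neither the inflammatory nor the resident genes had a common direction. The inflammatory genes changed by -0.09 ± 0.33 relative to the shared genes and the resident genes by -0.11 ± 0.62 (SD, n = 4), with -1.02 in d-SMG and 0.33 in the control for the latter. The Fc and inhibitory receptors changed by -0.39 ± 0.41, negative in all 4, and Csf1 by -0.18 ± 1.07. The resident minus the inflammatory level was 3.32, 2.60, and 3.96 on day 3, 7, and 14 in the control, 3.502, 3.45, and 2.12 in d-SMG, 2.52, 3.05, and 3.00 in GAG, and 3.32, 3.38, and 3.51 in Alg. It was the lowest of the 12 in the d-SMG library of day 14 and the highest in the control library of that day. These means over genes of unlike level are descriptions, and by medians over the genes the inflammatory change was 0.278 and the lipid-handling change -1.88.

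**Figure D5:**
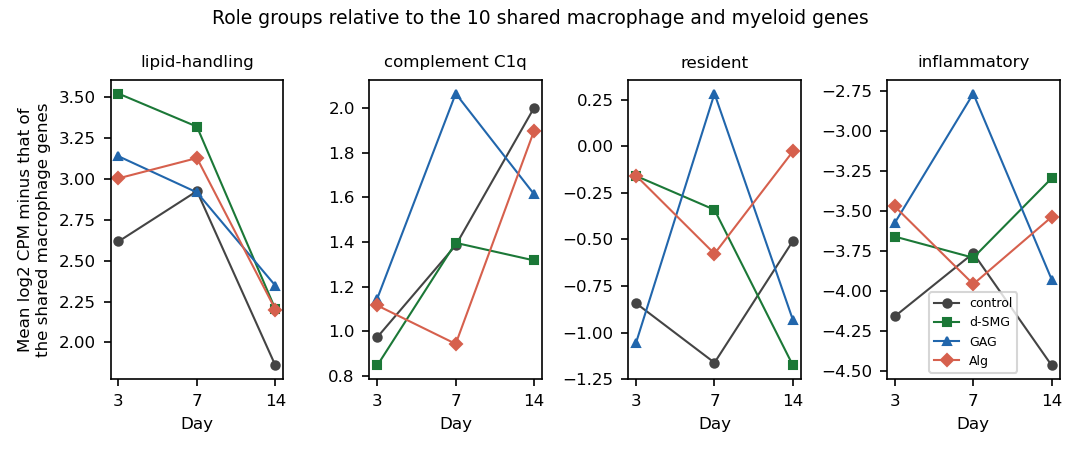
Mean log2 CPM of 4 role groups minus that of the 10 shared macrophage and myeloid genes on day 3, 7, and 14, with 1 library per point and a line for each treatment. Relative to the shared genes, the lipid-handling genes are lowest on day 14 in all 4 treatments (1.86 to 2.35). The C1q chains are higher on day 14 than on day 3 in all 4 on this relative scale only.

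Other genes of the macrophage pathways, namely growth factors and their receptors, lineage factors, chemokines, lysosomal proteases, lipid transporters, and cytokines, were followed as a list of 43 symbols, of which 41 were found and 40 tested. By edgeR 0 of the 40 were called in any of the 6 comparisons. The log2 difference was positive for 16 of 40 in d-SMG (median -0.0776), 4 of 40 in GAG (median -0.748), and 7 of 40 in Alg (median -0.258). Between days it was positive for 14 of 40 from day 3 to 7, 11 from day 3 to 14, and 16 from day 7 to 14.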

How the data were processed

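RNA was measured in 12 wound libraries of 4 treatments and 3 days, grouped by their labels. Library preparation kept the strand and removed rRNA, and both ends of each fragment were read for 150 bases. Submitters' processing notes name bcl2fastq, FastQC, TopHat2, and edgeR without versions. The genome build and the counting tool are not given in the sources used here. The authors deposited read counts of 25620 genes without normalization, as well as the FPKM of 25524 genes, divided by gene length and by the size of the library. A single further column in each file (1 per file) matches no described sample and was not used. The 39 genes, the role groups, the marker and pathway lists, and the tests were chosen with earlier results of these data known.

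Counts were scaled by TMM in edgeR 4.0.16 (R 4.3.3). Genes kept by filterByExpr were tested by the quasi-likelihood test with day and treatment as terms, adjusted by the Benjamini-Hochberg method over all 16110 genes at an FDR of 0.05. The SE is the absolute log2 difference divided by the square root of its F value in that test. The fit used all 12 libraries, so that the SE is not the spread of the libraries compared alone. The day term pairs the treatments by collection day, as the labels give it. The paper divided the rats into treatment groups and describes killing them after tissue was taken for histology. Whether a library holds a single animal or a pool is not given. The p-values measure only the spread between these libraries. Single-day differences are log2 CPM with a prior count of 2 for genes with at least 10 reads in both libraries together, which understates the change of low genes. They have no test, and intervals are Clopper-Pearson at 95%. The floor of a count of 0 is 3 reads, and both cover counting error only. Values in all libraries are given, within each role group, for the 2 genes with the highest mean FPKM and the gene with the largest ratio of highest to lowest CPM at a mean of at least 1 CPM, and for Mrc1, Cd86, Cd163, and Tnf, which the paper names. Alternatives used DESeq2 1.42.0, limma 3.58.1 on log2(FPKM + 1), RLE, library size, no low-count filter, and the exact test of edgeR at an assumed BCV of 0.3. The fitting steps were tested on simulated data. Promoter windows and symbols came from RefSeq (GRCr8), where 29 of the 39 genes had a window. Figures were drawn with matplotlib 3.10.9.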

Additional observations from a re-analysis of the deposited data

Results flagged for a closer look

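Members of the set that were at least 2-fold above the control on 1 day and at least 2-fold below it on another are given with their log2 differences. Each value compares 1 library with 1 library, and the difference between the days was not tested. In d-SMG, Cd163 was at 1.718 on day 7 and -2.026 on day 14. F13a1, the A subunit of coagulation factor XIII, was at 1.94 and -2.211 on the same days. Lyve1, a hyaluronan receptor, was at 1.098 on day 3, 1.565 on day 7, and -1.0 on day 14. Vsig4, a complement receptor of resident macrophages, was at -1.726 on day 3 and 1.616 on day 7. All 4 are resident genes.

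In GAG, Lyve1 was at -1.295, 1.766, and -1.178 on day 3, 7, and 14, and F13a1 at -1.037, 1.776, and -3.36. The control library of day 7 held the lowest F13a1 of the 12 libraries, at 16.39 CPM, and the control library of day 14 the highest, at 209.0 CPM, so that the F13a1 values of all treatments share that step.

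In Alg, 6 genes passed 2-fold on both sides of the control, and all 6 were above it on day 14. Cd14 was at -1.403, -1.451, and 1.123 on day 3, 7, and 14, and Msr1, a scavenger receptor, at -1.481, -1.998, and 1.119. Trem1, an amplifier of inflammatory signals, was at -1.745, -3.465, and 1.405, where the Alg library of day 7 held 2 reads. Spp1 was at -1.78 on day 3, 0.0622 on day 7, and 2.196 on day 14, and Vsig4 at -1.607 and 1.65. Ptgs2 was at 1.481, -2.20, and 1.926, on 3 to 28 reads in Alg. The sum over 10 neutrophil markers in Alg was 118.5, 73.19, and 253.5 CPM on the 3 days, against 129.3, 180.5, and 19.25 CPM in the control, and its part in these values was not tested.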

How the results depend on the processing

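With 1 library for each treatment and day, spread between animals was not measured, and the model takes days as replicates. At this depth the scarce inflammatory genes and Marco rest on counts of few reads. With no replicate block (without day, or without treatment, as a term), and leaving out each day or treatment in turn, edgeR called 0 of the macrophage genes in each of the 6 comparisons, as with the block. DESeq2 called 0 of them in d-SMG, 2 lower in GAG, 1 lower in Alg, and 2 lower from day 3 to 14. Over all genes it called 6 higher and 3 lower in d-SMG, 260 and 28 in GAG, 85 and 3 in Alg, 22 and 17 from day 3 to 14, and 3 and 4 from day 7 to 14. With the libraries of the 2 groups alone, edgeR called 12 genes higher in GAG and 9 in Alg, and without a low-count filter 1 in GAG. The cause was not tested.

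For single days, the exact test of edgeR at an assumed BCV of 0.3 called, higher and lower among the macrophage genes, 0 and 3, 1 and 0, and 3 and 2 in d-SMG on day 3, 7, and 14, 1 and 2, 0 and 7, and 0 and 13 in GAG, and 0 and 4, 0 and 6, and 1 and 0 in Alg, where the main rule counted genes by fold alone. Over all genes this test called 1027, 288, and 963 in d-SMG, 709, 1061, and 5399 in GAG, and 426, 339, and 839 in Alg, of 15846 to 16863 tested. By library size, d-SMG had 1 gene at least 2-fold higher and 22 lower on day 3, 0 lower on day 7, and 5 higher on day 14, and on log2(FPKM + 0.1) 1 higher and 23 lower on day 3 and 0 lower on day 7. Medians over genes in place of means moved the inflammatory balance to 0.278 and the lipid-handling balance to -1.88.

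Alternatives chosen after seeing the data concerned the direction counts. Without day 3, 10 genes were higher than control on both other days in d-SMG (29.9% of all genes) and 2 in Alg (24.1%). By library size 2 were lower on all days in d-SMG (5.44%), and 1 was higher in all treatments from day 7 to 14 (5.96%). Without d-SMG 12 were lower from day 3 to 7 (12.3%) and 4 higher from day 7 to 14 (9.33%). Medians over the set that turned sign when a day or treatment was left out stand beside the comparisons.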
